A study of Mus musculus with 6 samples.

Results

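The 10 genes described here encode chemokine ligands that cells of the vessel wall can make: Ccl2, Ccl5, Ccl7, Ccl20, Cxcl1, Cxcl2, Cxcl5, Cxcl10, Cxcl12 and Cx3cl1. They were chosen by name, with earlier results of these data known, and make up 10 of the 41721 gene rows of the count table. Mouse aortic smooth muscle cells (MASMCs) from the abdominal aorta were compared between Pdk4fl/fl and Pdk4SMKO mice, with 3 RNA sequencing libraries per genotype. PDK4 is a kinase that holds back the pyruvate dehydrogenase complex and with it the entry of pyruvate into mitochondrial oxidation. Pdk4SMKO mice carried floxed exons 4 to 6 of Pdk4 together with a tamoxifen-inducible Cre driven by the smooth muscle gene Myh11, and Pdk4fl/fl mice carried the floxed exons without Cre. Both genotypes had received tamoxifen at 75 mg/kg per day for 5 days. Cells were isolated at 10 weeks of age by collagenase digestion, checked for the smooth muscle actin ACTA2 by staining and used at passages 4 to 8. Both groups were treated with angiotensin II (Ang II), given by the study's methods as 1 μM for 48 h, so no untreated culture stands behind the values here. The study calls the 3 cultures of a genotype biological replicates, while the labels do not say whether they came from separate mice. The p-values measure the spread between these cultures.

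Chemokines are small secreted proteins that draw leukocytes along a gradient by binding G protein-coupled receptors on the target cell. CC ligands mainly recruit monocytes and lymphocytes, CXC ligands with a glutamate-leucine-arginine (ELR) motif recruit neutrophils through CXCR2, and CXCL10 recruits activated T cells through CXCR3. Most of these ligands are made on demand after NF-κB, AP-1 or interferon signalling, whereas CXCL12 is made constitutively by stromal cells, and chemokines of both kinds are known in the aneurysmal aortic wall.

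The bases upstream of 4 of the genes are shown. They hold, or lack, simple forms of the letters read by the transcription factors whose own transcripts are described further on. RefSeq promoter entries (GRCm38.p6) were matched by symbol for 6 of the 10 genes. The genes without an entry were Ccl2, Ccl5, Ccl7 and Cxcl5. The 250 bases before each annotated start were searched on both strands for an NF-κB motif (GGG and TTTCC with 2 bases of any kind between), an interferon-stimulated response element (ISRE, GAAA and GAAA with 2 bases between), an AP-1 motif (TGA and TCA with 1 base between) and a TATA box (TATAAA). Capitals mark the matches, which are printed as they stand on the gene's own strand, 5′ to 3′. In GRCm38.p6 the window of Cxcl1 is chr5:90890995-90891244 (plus strand) and that of Cxcl2 chr5:90903649-90903898 (plus strand). The window of Cxcl10 is chr5:92348890-92349139 (minus strand) and that of Cxcl12 chr6:117168285-117168534 (plus strand). Gene positions given further on are those of the C57BL/6NJ annotation, so their coordinates differ.
Cxcl1: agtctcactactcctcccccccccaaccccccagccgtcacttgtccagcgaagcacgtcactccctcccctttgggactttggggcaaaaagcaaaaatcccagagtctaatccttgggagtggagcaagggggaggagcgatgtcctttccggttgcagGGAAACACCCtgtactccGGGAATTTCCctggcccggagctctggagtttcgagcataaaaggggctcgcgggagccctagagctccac
Cxcl2: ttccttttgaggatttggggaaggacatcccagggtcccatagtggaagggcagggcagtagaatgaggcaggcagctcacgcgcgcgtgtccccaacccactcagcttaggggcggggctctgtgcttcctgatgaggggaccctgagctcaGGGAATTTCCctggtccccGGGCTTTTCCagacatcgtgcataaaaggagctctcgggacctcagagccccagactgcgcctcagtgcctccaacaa
Cxcl10: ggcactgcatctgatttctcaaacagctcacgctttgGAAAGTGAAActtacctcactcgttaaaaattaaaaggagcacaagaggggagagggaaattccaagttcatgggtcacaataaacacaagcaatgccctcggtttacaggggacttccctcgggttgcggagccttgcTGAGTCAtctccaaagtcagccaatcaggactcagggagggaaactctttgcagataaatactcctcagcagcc
Cxcl12: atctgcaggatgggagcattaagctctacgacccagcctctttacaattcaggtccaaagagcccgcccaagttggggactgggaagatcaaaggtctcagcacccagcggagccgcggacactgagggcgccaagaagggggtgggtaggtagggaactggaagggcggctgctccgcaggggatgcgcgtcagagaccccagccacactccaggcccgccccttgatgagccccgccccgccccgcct

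The neighbouring genes Cxcl1 and Cxcl2 both held the run GGGAATTTCC, at -71 to -62 from the start of Cxcl1 and at -97 to -88 from that of Cxcl2, and each held another NF-κB match close by. Cxcl10 held an ISRE match at -213 to -204 and an AP-1 match at -74 to -68. It also held the runs gggaaattcc and ggggacttcc, which are close to the NF-κB letters searched but do not match them. In Cxcl12 none of the 4 motifs matched. Of the genes not printed, Ccl20 held 1 NF-κB match and Cx3cl1 a TATA match at -6 to -1. Over 32851 RefSeq promoters of the same length, 1.41% held the NF-κB letters, 2.98% the ISRE letters, 6.75% the AP-1 letters and 12.4% the TATA letters. A match describes the letters in this window and is not evidence of a bound factor. The motifs searched are narrow forms, so the lack of a match is not evidence that a site is lacking.

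Library totals ran from 16526044 to 22481670 counts, and a count of 3, used as the floor, corresponded to 0.132 to 0.227 CPM, the counts scaled to a common library total. Pdk4 itself was counted at 570, 639 and 421 reads in Pdk4fl/fl and at 110, 182 and 141 in Pdk4SMKO, a log2 fold change of -2.34 (SE 0.22, edgeR adjusted p = 4.49e-06). The transcript of the targeted gene was thus lower in every Pdk4SMKO library but still present, in counts that cover the gene as a whole and not the floxed exons alone. The genotypes differed over much of the transcriptome. Of 14085 genes tested, 26.5% were called lower in Pdk4SMKO and 32.8% higher, where a call needed an adjusted p under 0.05 and at least a 2-fold change. Calls to the lower side were 44.7% of all calls, and 27.9% with scaling by library size alone, which called 17.0% of tested genes lower and 43.9% higher. The first Pdk4SMKO culture stood apart from the other two in several of the ligands, and its summed macrophage marker level was 2.62 times the mean of theirs.

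All 10 ligands passed the filter on low counts. In Pdk4SMKO cells 7 of them fell (Ccl2, Ccl5, Ccl20, Cxcl1, Cxcl2, Cxcl5 and Cxcl10), against 26.5% of all genes tested, 1 rose (Cxcl12), against 32.8%, and Ccl7 and Cx3cl1 did not pass the test. The median log2 fold change of the 10 was -2.20, and that of all tested genes was 0.12. As the list was made with earlier results of these data known, these comparisons describe it and do not test it. Between the genotypes the libraries did not overlap for the 7 ligands that fell, an ordering seen in 38.3% of all genes tested, nor for Cxcl12, an ordering seen in the upward direction in 43.5%. Each of these 8 gave an exact two-sided permutation p of 0.1, the smallest that 3 libraries against 3 allow. The study had itself displayed Ccl5, Cxcl1 and Cxcl2 from these libraries. It also reported TNF signalling and cytokine-cytokine receptor interaction among the pathways lowered in them. All 10 ligands were measured in the same libraries, so the direction of none of them is independent evidence. In whole cultures, fewer cells of a type and less RNA per cell cannot be told apart.

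**Figure D1:**
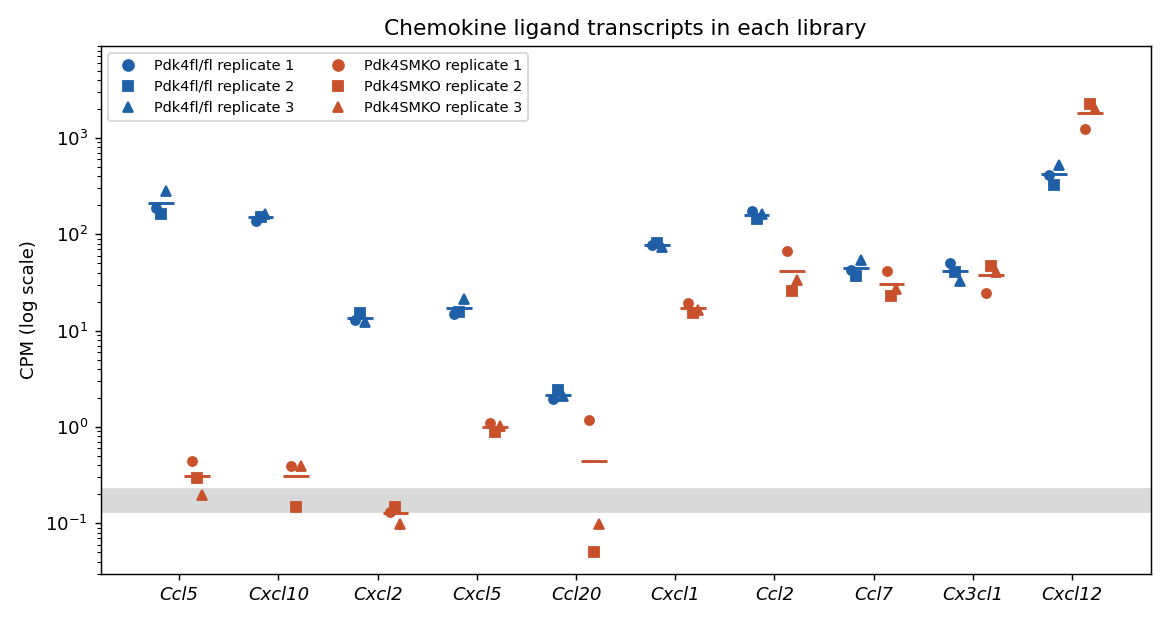
CPM on a log axis for each of the 10 ligands, ordered by fold change, with Pdk4fl/fl libraries in blue and Pdk4SMKO libraries in orange, marker shape giving the replicate, a horizontal line at each mean, and a grey band over the floor of 3 counts (0.132 to 0.227 CPM). Ccl5 and Cxcl10 went from means of 210 and 150 CPM to near the floor, the libraries of Ccl7 and Cx3cl1 overlap, and Cxcl12 is the ligand that is higher in every Pdk4SMKO library.

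Among the CC ligands, Ccl5 (RANTES), which draws T cells and monocytes, showed the largest fall of the 10. It is encoded on chromosome 11 (87455568 to 87460312, minus strand, coordinates as the table gives them). It stood at 186, 160 and 284 CPM in Pdk4fl/fl and at 0.439, 0.299 and 0.196 CPM in Pdk4SMKO, the latter from counts of 10, 6 and 4. The lowest Pdk4fl/fl culture was thus far above the highest Pdk4SMKO culture. The means were 210 ± 65.1 and 0.311 ± 0.122 CPM (SD, n = 3), and the log2 fold change was -9.35 (SE 0.34, edgeR adjusted p = 1.48e-08). Summed over libraries, the ratio of the genotypes was 644, with a 95% interval of 417 to 1055 that covers counting error alone.

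Ccl2 (MCP-1), the principal CCR2 ligand and attractant of inflammatory monocytes, fell less far and unevenly. The gene lies on chromosome 11 (85777797 to 85779669, plus strand). Its level was 176, 143 and 161 CPM in Pdk4fl/fl and 66.9, 26.0 and 33.2 CPM in Pdk4SMKO. The first Pdk4SMKO culture was 2.26 times the mean of the other two, yet remained below every Pdk4fl/fl culture. The log2 fold change was -1.93 (SE 0.30, edgeR adjusted p = 0.000167), leaving 26.2% of the Pdk4fl/fl mean. Without the first Pdk4SMKO culture it was -2.43.

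Ccl7 (MCP-3), another CCR2 ligand, starts 10135 bases from Ccl2 on the same strand (85787932 to 85789745). It was measured at 42.6, 37.1 and 53.9 CPM in Pdk4fl/fl and at 41.9, 22.6 and 27.0 CPM in Pdk4SMKO. The first Pdk4SMKO culture lay within the Pdk4fl/fl range and the other two lay below it. The log2 fold change of -0.54 (SE 0.23, edgeR adjusted p = 0.0506, exact permutation p = 0.2) did not pass, with a 95% interval of -1.05 to -0.03, and scaling by library size alone turned it to 0.07.

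Ccl20, the CCR6 ligand that draws Th17 cells and dendritic cells, was the ligand with the lowest level per length in Pdk4fl/fl cells and lies on chromosome 1 (87332459 to 87334860, plus strand). It was counted at 29, 44 and 28 reads in Pdk4fl/fl and at 27, 1 and 2 in Pdk4SMKO, or 1.93, 2.42 and 2.12 against 1.19, 0.050 and 0.098 CPM. The first Pdk4SMKO culture was 16.0 times the mean of the other two, which stood below the floor. The log2 fold change was -2.22 (SE 0.76, edgeR adjusted p = 0.0215), and it was -4.73 without that culture. This was the least secure of the 7 calls, since it did not pass with library size alone (adjusted p = 0.0802) or without the second Pdk4fl/fl (0.0602), the second Pdk4SMKO (0.0531) or the third Pdk4SMKO culture (0.0654).

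The 3 ELR ligands of CXCR2 on chromosome 5, which call neutrophils, fell together but to different degrees. Cxcl1 (KC; 95644814 to 95646688, plus strand) was at 78.0, 81.2 and 72.9 CPM in Pdk4fl/fl and at 19.2, 15.3 and 16.4 CPM in Pdk4SMKO. It retained 21.9% of its Pdk4fl/fl mean (log2 fold change -2.19, SE 0.14, edgeR adjusted p = 2.47e-07). Replicates of Cxcl1 were tight, with coefficients of variation of 5.35% and 11.9%.

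Cxcl2 (MIP-2; 95658254 to 95660321, plus strand) starts 13440 bases from Cxcl1. It was counted at 194, 279 and 164 reads in Pdk4fl/fl and at 3, 3 and 2 in Pdk4SMKO, which is at the floor. Every Pdk4SMKO culture was therefore close to the limit of detection. The means were 13.6 ± 1.55 and 0.126 ± 0.026 CPM (SD, n = 3), with an edgeR adjusted p of 4.51e-08. The ratio of summed counts was 108 with a counting interval of 54.7 to 252. Of its 31-base words, 7.59% also occur in Cxcl3, so a small share of its reads could belong to that paralog.

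Cxcl5 (LIX; 95522297 to 95524527, plus strand) was intermediate. It stood at 14.7, 15.5 and 21.3 CPM in Pdk4fl/fl and at 1.10, 0.896 and 1.03 CPM in Pdk4SMKO. All Pdk4SMKO cultures lay far below the lowest Pdk4fl/fl culture, with a log2 fold change of -4.08 (SE 0.25, edgeR adjusted p = 2.10e-07).

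Ratios between ligands within the same library carry no library scaling and were compared for 3 pairs chosen after their values were seen. Per length, Ccl2 exceeded Ccl7 by 2.91, 2.71 and 2.11 times in Pdk4fl/fl and by 1.12, 0.809 and 0.864 times in Pdk4SMKO. The balance between the paired CCR2 ligands thus moved from Ccl2 to near parity. Cxcl1 exceeded Cxcl2 by 6.65, 5.84 and 6.48 times in Pdk4fl/fl and by 161, 113 and 184 times in Pdk4SMKO. Cxcl1 exceeded Cxcl5 by 5.21, 5.16 and 3.38 times in Pdk4fl/fl and by 17.2, 16.8 and 15.7 times in Pdk4SMKO. The log2 ratios differed by -1.47, 4.56 and 1.88, the libraries of the genotypes not overlapping in any of the pairs. Each gave an exact two-sided permutation p of 0.1 (0.1 adjusted over the 3 pairs), the smallest that 3 against 3 allows. The Cxcl1 to Cxcl2 ratio in Pdk4SMKO rests on Cxcl2 counts at the floor.

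**Figure D2:**
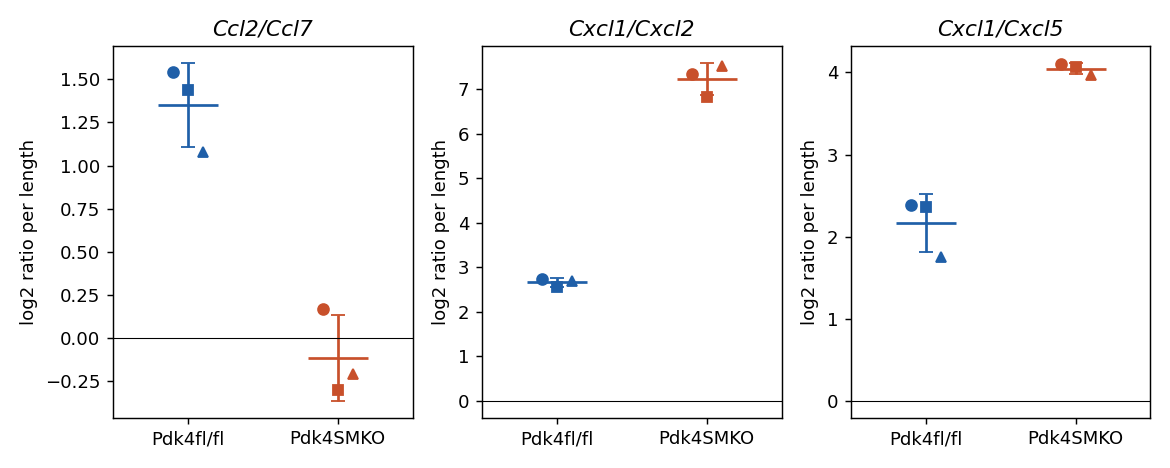
Log2 ratio of 2 ligands per length in each library, with a panel for each pair, points for replicates 1 to 3, and the mean with SD as error bar. The mean Ccl2/Ccl7 log2 ratio falls from 1.35 to -0.12, while Cxcl1/Cxcl2 rises from 2.66 to 7.22 and Cxcl1/Cxcl5 from 2.17 to 4.05, so the genotypes are separate in each panel.

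Cxcl10 (IP-10), the interferon-inducible CXCR3 ligand, lies on chromosome 5 (97242477 to 97245742, minus strand). It was at 137, 149 and 163 CPM in Pdk4fl/fl and at 0.395, 0.149 and 0.392 CPM in Pdk4SMKO, from counts of 9, 3 and 8. After Ccl5 this was the largest fall, with a log2 fold change of -8.86 (SE 0.24, edgeR adjusted p = 9.13e-09). The ratio of summed counts was 473 with a counting interval of 306 to 774. Its row overlaps that of Art3, which held 19 counts in all libraries together, and 4.47% of its 31-base words also occur in Art3 transcripts.

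Cxcl12 (SDF-1), the ligand of CXCR4 and of the scavenging receptor ACKR3, was the ligand that rose. It is encoded on chromosome 6 (122914398 to 122927229, plus strand). Its level was 414, 325 and 529 CPM in Pdk4fl/fl and 1239, 2250 and 2000 CPM in Pdk4SMKO. The lowest Pdk4SMKO culture, the first, was above the highest Pdk4fl/fl culture. The means of 423 ± 102 and 1830 ± 526 CPM (SD, n = 3) correspond to a 4.33-fold increase (log2 fold change 2.11, SE 0.24, edgeR adjusted p = 2.05e-05). Summed fibroblast marker levels were higher too, at 854, 784 and 625 CPM in Pdk4fl/fl and at 7054, 6928 and 5151 CPM in Pdk4SMKO. Most of this was Col1a1 (means 619.7 and 5901 CPM). The order of the sums within each genotype was that of Col1a1. Dcn was at 97.3, 79.1 and 101.6 CPM in Pdk4fl/fl and at 245, 554 and 504 CPM in Pdk4SMKO. Of the 5 fibroblast markers 3 were called higher, against 32.8% of all tested genes, and Dpt was called lower. Mesothelial marker sums ran from 74.2 to 99.99 CPM in Pdk4fl/fl and from 723 to 1325 CPM in Pdk4SMKO. Of the tested markers 7 of 7 were called higher, against the same 32.8%. Most of the Pdk4fl/fl sum was Krt19 (means 79.2 and 279 CPM). Msln had means of 6.43 and 410 CPM, and Upk1b, near the floor in Pdk4fl/fl, of 0.157 and 218 CPM. The part of the fibroblast and mesothelial markers in the result was not tested.

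Cx3cl1 (fractalkine), made as a membrane-bound ligand of CX3CR1 and released by ADAM10 or ADAM17, was not called and lies on chromosome 8 (99711181 to 99723243, plus strand). It stood at 50.5, 40.3 and 32.5 CPM in Pdk4fl/fl and at 24.7, 47.2 and 40.8 CPM in Pdk4SMKO. The ranges overlapped, with the lowest value in the first Pdk4SMKO culture. The log2 fold change was -0.13 (SE 0.24, edgeR adjusted p = 0.620, exact permutation p = 0.7) with a 95% interval of -0.66 to 0.40. Its sign changed to positive, at 0.46, with library size alone.

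**Figure D3:**
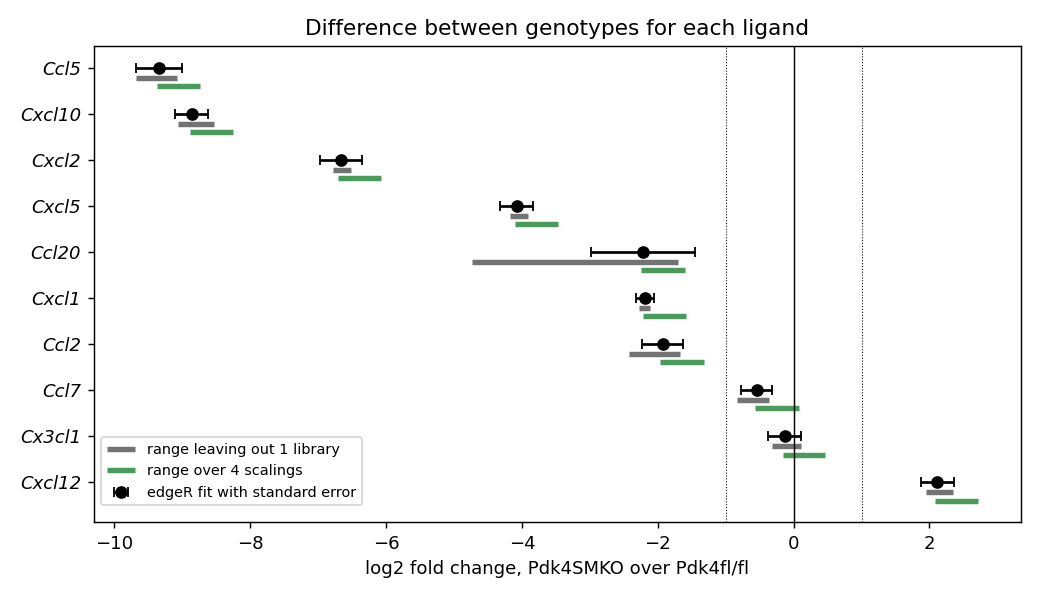
Log2 fold change of each ligand (Pdk4SMKO over Pdk4fl/fl; black point with SE), with the range from leaving out 1 library at a time in grey and the range over 4 scalings in green; dotted lines mark the 2-fold limit. The 7 ligands that fell stay left of zero throughout, Cxcl12 stays right of it, and Ccl7 and Cx3cl1 reach both sides under the scalings.

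Levels were ordered between genes after division by the deposited gene length, which need not be the length of the isoform expressed. In Pdk4fl/fl, Ccl5 led at 219 ± 67.8 CPM per kilobase (SD, n = 3), followed by Ccl2 at 141 ± 14.7, and both were separate from their neighbours in the order. Cxcl10 (66.6), Ccl7 (55.6), Cxcl12 (51.7) and Cxcl1 (41.3) came next, each with libraries overlapping those of the next. Cxcl5 (9.30), Cx3cl1 (7.67) and Cxcl2 (6.55) formed another overlapping run, and Ccl20 was lowest at 1.52 CPM per kilobase.

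In Pdk4SMKO the order was different. Cxcl12 led at 224 ± 64.4 CPM per kilobase and was separate from the rest, ahead of Ccl7 (38.1) and Ccl2 (36.9), which overlapped each other. Cxcl1 (9.04) and Cx3cl1 (7.01) overlapped as well, and Cxcl5 followed at 0.546. The remaining 4, namely Ccl5 (0.324), Ccl20 (0.313), Cxcl10 (0.139) and Cxcl2 (0.061 CPM per kilobase), each overlapped their neighbour.

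As a share of the summed level of the 10 ligands, Cxcl12 took 8.74, 7.75 and 9.16% in Pdk4fl/fl and 54.2, 80.0 and 75.3% in Pdk4SMKO. It was the leading component in each Pdk4SMKO culture, least in the first. Without division by gene length, a scale chosen after seeing the data, Cxcl12 was the leading ligand in both genotypes, at 37.2, 33.5 and 39.7% of the summed CPM in Pdk4fl/fl and 88.8, 95.2 and 94.4% in Pdk4SMKO. Ccl5 went from 35.9 ± 5.16% to 0.106 ± 0.052% (SD, n = 3) of the sum, and Cxcl10 from 11.2% to 0.045%. The sum itself was 599.6 ± 97.7 CPM per kilobase in Pdk4fl/fl and 316 ± 33.1 in Pdk4SMKO. The direction of the sum depends on the scale, since the summed CPM without division by length was 1139 ± 182 in Pdk4fl/fl and 1959 ± 503 in Pdk4SMKO, higher in every Pdk4SMKO library. Per length and without Cxcl12 the sum was 548 ± 85.3 and 92.5 ± 31.4 CPM per kilobase.

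**Figure D4:**
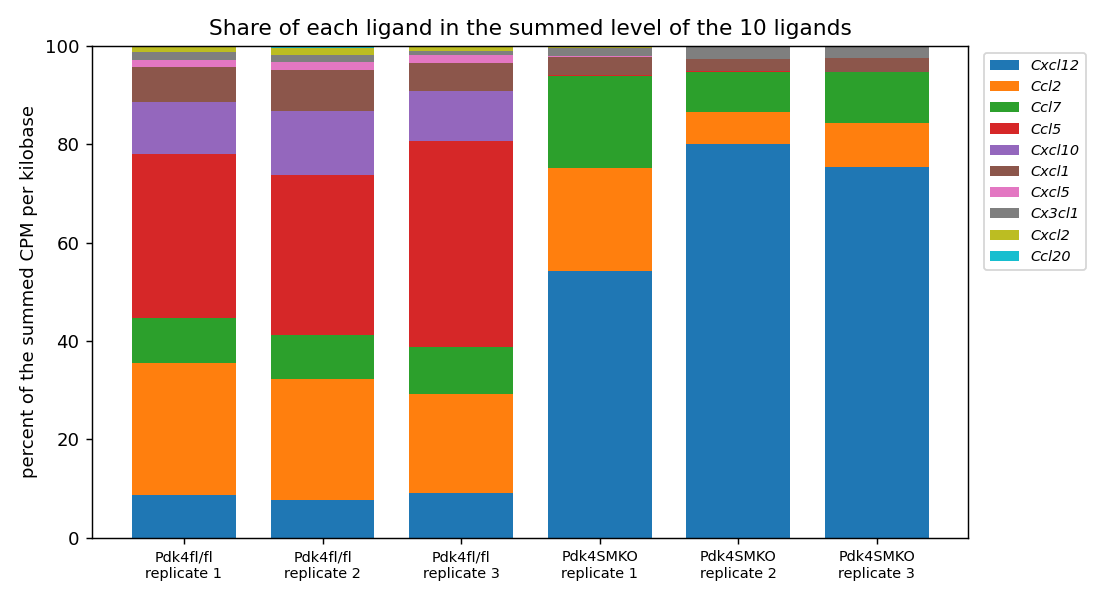
Stacked bars of each ligand's percent of the summed CPM per kilobase, with a bar per library. Ccl5, Ccl2 and Cxcl10 fill most of the Pdk4fl/fl bars, whereas Cxcl12 fills 54.2 to 80.0% of the Pdk4SMKO bars.

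The chemokine ligands that lie beside these genes were examined next, because the CC cluster of chromosome 11 and the CXC cluster of chromosome 5 arose by gene duplication. On chromosome 11, Ccl6, a myeloid CC ligand, was counted at 0, 3 and 0 reads in Pdk4fl/fl and at 963, 274 and 223 in Pdk4SMKO, a ratio of summed counts of 357 with a counting interval of 122 to 1734 (edgeR adjusted p = 1.12e-05). Ccl3 was counted at 0 in every Pdk4fl/fl library and at 36, 9 and 11 in Pdk4SMKO, at least 4.34-fold higher against the floor per library. Ccl12 went from 0 in every Pdk4fl/fl library to 28, 5 and 3, at least 2.75-fold higher. Neither Ccl3 nor Ccl12 passed the filter on low counts, so they were not tested. These myeloid genes were highest in the first Pdk4SMKO culture.

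The macrophage markers Adgre1, C1qa, C1qb and Tyrobp were likewise at 0 in every Pdk4fl/fl library and above it in every Pdk4SMKO library. Of the 8 macrophage markers 6 were tested; 5 were called higher (32.8% of all tested genes) and Cd68 lower (26.5%), and the summed level was 21.4 to 38.0 CPM in Pdk4fl/fl and 9.71 to 30.5 CPM in Pdk4SMKO. Nearly all of the Pdk4fl/fl sum was Cd68, at 37.9, 34.5 and 21.3 CPM, against 6.81, 3.14 and 2.94 CPM in Pdk4SMKO. The part of the macrophage markers in the values of Ccl3, Ccl6 and Ccl12 was not tested. Ccl9, another neighbour, fell from 10.8 ± 3.17 to 4.62 ± 1.72 CPM (SD, n = 3; log2 fold change -1.22, edgeR adjusted p = 0.00395). Ccl8 was not called (log2 fold change 0.92, edgeR adjusted p = 0.110), and Ccl1, Ccl4 and Ccl11 held at most 17 counts in any library and were not tested.

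On chromosome 5, Cxcl3, the paralog that shares 31-base words with Cxcl2, was counted at 15, 22 and 25 reads in Pdk4fl/fl and at 0 in every Pdk4SMKO library, at least 9.57-fold lower. Cxcl15 (lungkine), whose row starts between the Cxcl3 and Cxcl1 rows, was higher in the fit at counts of 686, 835 and 1119 against 1213, 3630 and 3631 (log2 fold change 1.23, SE 0.41, edgeR adjusted p = 0.0190), although its CPM overlapped between the genotypes. Cxcl9, Pf4 and Ppbp held at most 9 counts in any library and were not tested.

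**Figure D5:**
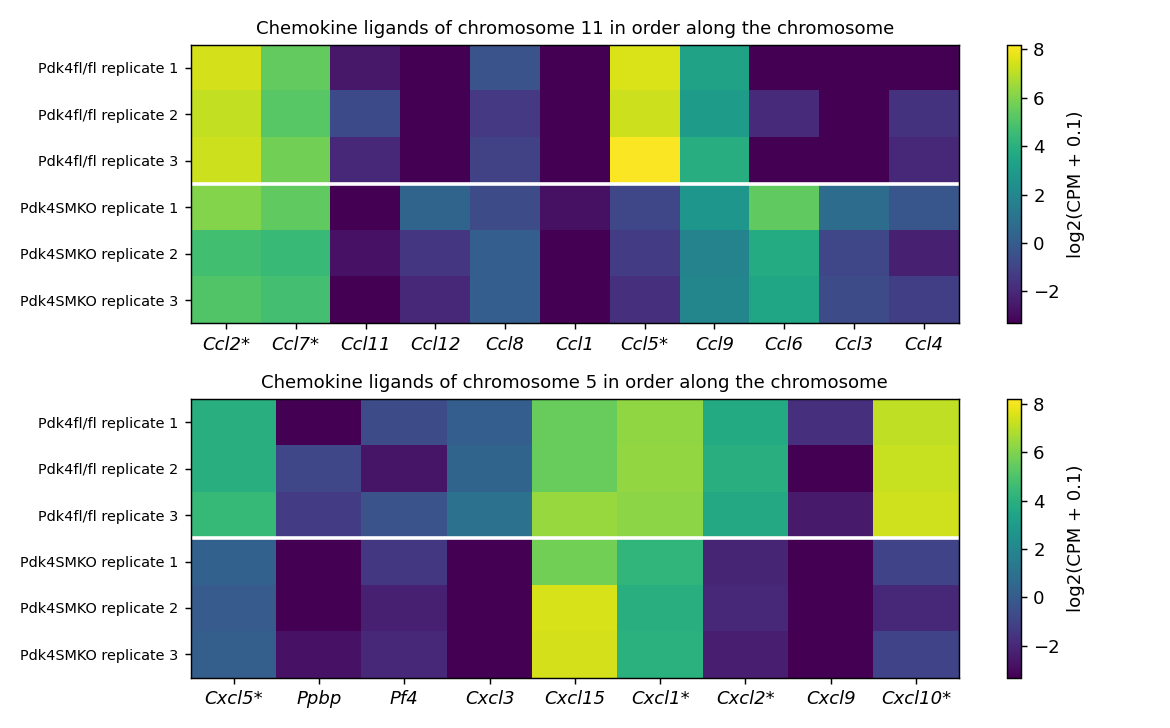
Heat maps of log2(CPM + 0.1) for chemokine ligands of chromosomes 11 and 5, in their order along the chromosome, with 6 libraries as rows and an asterisk on the 10 ligands of interest. Ccl5, Cxcl2 and Cxcl10 are dark in the 3 lower rows, where Ccl6 is bright, with counts of 963, 274 and 223.

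Of the 25 other chemokine ligands with a row, 9 were tested, of which 4 fell (Cxcl3, Cxcl16, Ccl9 and Ccl25), against a background of 26.5%, and 3 rose (Ccl6, Cxcl15 and Cxcl17), against 32.8%. The median log2 fold change of the 9 was -0.16. Cxcl16, which is membrane-bound like Cx3cl1 and binds CXCR6, was at 77.3 ± 12.1 CPM in Pdk4fl/fl and 11.3 ± 0.762 in Pdk4SMKO (SD, n = 3; log2 fold change -2.77, edgeR adjusted p = 1.24e-07). Cxcl17, a mucosal chemokine, was counted at 1, 3 and 0 reads against 58, 106 and 96. Without the filter on low counts 7 fell and 6 rose, beside 4360 and 5693 of all 24025 genes tested there.

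Several leukocyte receptors of the 10 ligands were almost absent from these cultures. Ccr2, Ccr6 and Cxcr3 had no count in any of the 6 libraries, where a count of 0 allows up to 0.132 to 0.227 CPM, and Cxcr2, Cxcr4 and Cx3cr1 had at most 2 counts in any. Ccr1 was counted at 0, 2 and 1 in Pdk4fl/fl and at 21, 9 and 13 in Pdk4SMKO. The exception was Ackr3, which takes up CXCL12. It rose from 5.28 ± 0.806 to 50.6 ± 21.5 CPM (SD, n = 3), at counts of 66, 109 and 72 against 590, 1225 and 1324 (log2 fold change 3.26, SE 0.33, edgeR adjusted p = 8.59e-06).

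Among the 23 chemokine receptors 5 were tested; Ccr7 and Ccrl2 fell, Ackr3 and Cxcr6 rose and Ccr10 was not called, counts too small to set apart from the 26.5% and 32.8% of all tested genes. Ccrl2, an atypical receptor, dropped from 21.3 to 0.796 CPM (log2 fold change -4.74, edgeR adjusted p = 2.73e-07). Ccr7 was counted at 14, 34 and 11 in Pdk4fl/fl and at 0 in every Pdk4SMKO library, at least 8.48-fold lower, and Cxcr6 at 0 in every Pdk4fl/fl library and at 15, 13 and 12, at least 3.20-fold higher. With DESeq2 5 receptors rose, beside 5096 of all 19371 genes tested there. Without the filter 5 rose as well, beside 5693 of 24025 genes.

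Upstream of the inducible ligands, 16 receptors and adaptors were examined. Of the 15 tested, 2 fell (26.5% of all tested genes) and 7 rose (32.8%), with a median log2 fold change of 0.95. Tlr2, which senses bacterial lipoproteins, fell from 89.4 to 11.2 CPM (log2 fold change -3.00, edgeR adjusted p = 3.82e-07), and Ticam1, the TRIF adaptor of TLR3 and TLR4, from 133 to 21.3 CPM (-2.64, adjusted p = 6.22e-08). Tlr3 rose from 1.32 to 9.55 CPM (2.84) and Il1r1, the signalling receptor of IL-1, from 5.69 to 18.2 CPM (1.69). Tnfrsf1a, Tnfrsf1b, Ifnar1, Tlr4 and Myd88 also rose. Agtr1a, the main Ang II receptor of smooth muscle, held at most 10 counts in any library and was not tested.

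The transcription factors and inhibitors that act on such promoters were lower in the main. Of 18 tested 12 fell (background 26.5%) and 2 rose (32.8%), with a median log2 fold change of -2.54. Jun, a subunit of AP-1, went from 2869 ± 515 to 36.9 ± 5.21 CPM (SD, n = 3; log2 fold change -6.28, edgeR adjusted p = 1.17e-08). Relb, an NF-κB subunit, went from 614 ± 70.1 to 23.4 ± 1.69 CPM (-4.71, adjusted p = 9.86e-09). Rela, Rel and Nfkb2 fell as well, as did the NF-κB inhibitors Nfkbia, Nfkbib, Nfkbie and Tnfaip3, so activating and restraining parts of the pathway were lower together. Irf3, a factor of the interferon pathway, rose by 1.48 on the log2 scale. Jun, Rela, Nfkbia, Nfkbib, Tnfaip3 and the adaptor Ticam1 had been displayed by the study from these libraries. The other genes of these lists were measured in the same libraries, so the direction of none of them is independent evidence.

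Of 8 genes that act on the decay of AU-rich chemokine mRNAs, 5 fell (26.5% of all tested genes) and 0 rose in edgeR, in DESeq2 or at an unadjusted edgeR p under 0.05. Zfp36 (tristetraprolin), which destabilizes such mRNAs, fell from 1194 to 43.4 CPM (log2 fold change -4.78, edgeR adjusted p = 1.45e-08), and Elavl1 (HuR), which stabilizes them, from 243 to 59.6 CPM (-2.03, adjusted p = 9.01e-08). A destabilizing and a stabilizing factor were thus both lower.

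Of 15 genes that trim, shed or present chemokines, 4 fell and 7 rose, beside 26.5% and 32.8% of all tested genes. Their median log2 fold change was 0.92, and the share that fell was near that of all genes. Dpp4, the peptidase that inactivates CXCL12 and CXCL10, was at 0 in every Pdk4fl/fl library and at 69, 26 and 19 counts in Pdk4SMKO, at least 8.88-fold higher. Adam17 fell from 300.5 to 76.8 CPM (log2 fold change -1.97, edgeR adjusted p = 2.59e-07), whereas Adam10 rose from 49.1 to 232 CPM (2.24), so the sheddases of Cx3cl1 moved in opposite directions. Mmp9, a gelatinase that cleaves several chemokines, fell from 4.39 to 0.258 CPM (-4.02), and Hs6st1, which adds a sulfate to the heparan chains that hold chemokines, rose from 2.39 to 38.5 CPM (3.96, adjusted p = 1.52e-05). Adam10 was chosen after its values were seen, as the partner of Adam17.

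The cultures were set against markers of the cell types they could hold. Of the smooth muscle markers Acta2, Myh11, Lmod1 and Des rose and Tagln, Cnn1 and Smtn fell, and the summed level was 785 to 811 CPM in Pdk4fl/fl and 723 to 954 CPM in Pdk4SMKO. Myh11, whose promoter drives the Cre, was counted at 8 to 10 reads in Pdk4fl/fl and at 44 to 62 in Pdk4SMKO, so this defining marker was low in both. T cell and neutrophil markers were at or near 0, with Cd3g, Cd2, S100a9, Ly6g, Mpo and Elane at 0 in every library. Endothelial markers summed to 14.1 to 23.7 CPM in Pdk4fl/fl and 2.84 to 5.62 CPM in Pdk4SMKO. The part of these differences in the ligand values was not tested.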

How the data were processed

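The authors deposited unnormalized read counts per gene for 6 libraries in 1 table. The aligner, the counter and strand use are not given in the sources used here. The submitters' processing notes name GRCm39, while the identifiers are those of the C57BL/6NJ annotation. The labels and the study's methods name different library kits. The genotype label gave each sample its group.

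Counts were filtered (filterByExpr), scaled (TMM) and tested for genotype with edgeR 4.0.16 (quasi-likelihood, R 4.3.3), with Benjamini-Hochberg adjustment over 14085 genes. CPM values use the TMM-scaled totals. Against a genotype with no counts, folds are bounds at 3 counts per library. Counting intervals are exact binomial. With 3 libraries against 3, the exact two-sided permutation test cannot give p under 0.1. The steps were tested on simulated data with few genes changed, equally up and down. Scaling under changes as broad as those here was therefore not tested.

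The members and gene lists were chosen with earlier results of these data known. Named genes were the 10 ligands, Pdk4, their cluster neighbours, up to 2 called genes with the lowest and 2 with the highest fold change per list among those that did not overlap, ligand receptors above 3 counts, and markers at 0. Other named genes were chosen after their values were seen. Alternatives were DESeq2 1.42.0, other scalings, filters and fold limits, a replicate block and leaving out each library. No row was found by symbol for Ccl19, Ccl21a, Cxcl11 and Nfkbiz, which were not analysed here. Some listed genes that the rule for named genes takes in are not reported here by name.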

Additional observations from a re-analysis of the deposited data

How the results depend on the processing

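Of the 10 ligands, 7 were called lower and 1 higher in each alternative except those named here. Requiring at least 10 counts in every library left 3 lower, since Ccl5, Ccl20, Cxcl2 and Cxcl10 were then not tested, library size alone and a limit of 4-fold each left 6, and leaving out 1 library at a time gave 6 to 7. Over all genes, 2390 were lower and 6184 higher with library size alone, and a limit of 4-fold gave 1765 lower and 2645 higher, against 3733 and 4616 in the fit reported. Library size alone moved the median log2 fold change of all genes by 0.61, and the upper quartile by 0.21. Ccl7 reversed to 0.073 with library size alone. Cx3cl1 reversed to 0.076 with upper-quartile scaling and 0.46 with library size alone, and leaving out a library gave -0.32 to 0.11, with 0.04 without the first Pdk4fl/fl and 0.11 without the first Pdk4SMKO culture; the cause was not tested.

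Other ligands called lower numbered 2 with library size alone, 7 without the filter and 2 at 4-fold, against 4. Those called higher numbered 6 without the filter and 1 with at least 10 counts, against 3. Receptors called lower numbered 0 with at least 10 counts, a filter that removes genes at 0 in a genotype, against 2; receptors called higher numbered 5 with DESeq2, 5 without the filter and 1 with at least 10 counts, against 2. At 4-fold, 1 inducing receptor or adaptor was higher (against 7), 0 transcription factors were higher (against 2), 2 decay genes were lower (against 5) and 1 processing gene was lower (against 4). Without a fold limit 4 inducing receptors or adaptors were lower, against 2.

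Same-numbered libraries deviated together with correlations of 0.0505, 0.113 and 0.261, which does not show that the numbers pair the cultures. A fit with the replicate number as a block called 7 ligands lower and 1 higher, and 3704 and 4577 of all genes; Ccl7 had an adjusted p of 0.0210 there but a log2 fold change of -0.58, within the fold limit. Without division by gene length, Cxcl12 ranked at 1 in both genotypes and Ccl5 at 2 in Pdk4fl/fl. The log2 ratio of the summed ligand level reversed from -0.92 per length to 0.78 without division, since Cxcl12 has the greatest gene length of the 10. The depth limits values near 3 counts, namely Cxcl2, Ccl20, Cxcl10 and Ccl5 in Pdk4SMKO.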
